A study of Homo sapiens with 24 samples.

Results

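The genes described here are 50 cell cycle genes, chosen with earlier results of these data known. They were taken by name from textbook roles in G1, S, G2 and mitosis and not from any measured value. They make up 50 of the 58138 gene names in the count tables. By role, 11 act in G1 control, 8 at entry into S phase, 12 in DNA replication and 19 in G2 and mitosis. All 50 were found in every table, and all 50 passed the filter on low counts in the HEK293T samples, in the Flp-In T-REx 293 samples and in the 24 samples together.

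The study measured mRNA of human embryonic kidney cell lines by sequencing the 3′ ends of polyadenylated transcripts, in 24 samples that form 12 groups of 2. HEK293T, a 293 derivative that carries the SV40 large T antigen, had siRNA in all of its 8 groups for 48 h. They are control, the single knockdowns RPRD2_KD, RPRD1B_KD and RPRD1A_KD, the groups RPRD1B_RPRD2_KD, RPRD1A_RPRD2_KD and RPRD1A_RPRD1A_KD, and the triple knockdown RPRD1A_RPRD1B_RPRD2_KD, where KD marks the genes named for knockdown. Flp-In T-REx 293, a 293 line made for tetracycline-inducible expression from an integrated construct, formed 4 groups: FLP and RPRD1B_FL were untreated, and FLP_TET and RPRD1B_FL_TET were induced with tetracycline for 48 h. The labels do not explain FL, do not say whether RPRD1B_FL is 1 clone, give no siRNA sequence, and name RPRD1A in both positions of RPRD1A_RPRD1A_KD, which is kept as written. Nothing in the labels says that the 2 samples of a group came from separate cultures, so p-values measure the spread between these samples, which may be technical.

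The cell cycle is driven by cyclin-dependent kinases, each switched on by a cyclin whose mRNA and protein rise and fall with the phase. In G1, D-type cyclins with CDK4 and CDK6 phosphorylate the retinoblastoma proteins, which frees E2F factors to transcribe cyclin E and the replication genes, and later the cyclin A and cyclin B genes are transcribed for G2 and mitosis. RPRD1A, RPRD1B and RPRD2 bind the carboxy-terminal domain of RNA polymerase II, and RPRD1B, also called CREPT, is known for promoting transcription of CCND1, the cyclin D1 gene, and cell proliferation. In bulk RNA of growing cells, fewer cells in a phase and less mRNA per cell cannot be told apart.

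Many of these genes are known to be regulated through short promoter elements, and 4 promoters are shown because their genes differed between the lines described last. The windows are the 300 bases from 250 before to 50 after the RefSeq start site on GRCh38.p14, read 5′ to 3′ on the gene's strand. Capitals mark the motifs searched on both strands: the cell cycle genes homology region, or CHR (TTTGAA or CTTGAA or TTCGAA), the E2F motif (TTTGGCGC or TTTCGCGC or TTCCCGCC) and CCAAT. In MKI67 a TTTGAA and a reverse-strand CCAAT, read as ATTGG, overlap.
CCNB2, chr15:59104896-59105195, plus strand: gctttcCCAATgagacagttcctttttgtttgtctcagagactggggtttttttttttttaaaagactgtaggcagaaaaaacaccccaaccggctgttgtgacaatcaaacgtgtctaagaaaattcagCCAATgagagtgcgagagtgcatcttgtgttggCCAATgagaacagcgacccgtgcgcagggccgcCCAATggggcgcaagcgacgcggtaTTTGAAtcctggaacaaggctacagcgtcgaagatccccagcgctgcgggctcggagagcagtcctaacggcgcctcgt
PLK1, chr16:23678639-23678938, plus strand: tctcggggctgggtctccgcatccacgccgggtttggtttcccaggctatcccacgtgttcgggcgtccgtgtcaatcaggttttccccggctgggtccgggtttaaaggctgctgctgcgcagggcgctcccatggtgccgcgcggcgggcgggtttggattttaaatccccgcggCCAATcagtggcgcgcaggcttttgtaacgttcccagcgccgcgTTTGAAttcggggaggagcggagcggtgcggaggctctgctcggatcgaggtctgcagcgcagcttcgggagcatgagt
MKI67, chr10:128126374-128126673, minus strand: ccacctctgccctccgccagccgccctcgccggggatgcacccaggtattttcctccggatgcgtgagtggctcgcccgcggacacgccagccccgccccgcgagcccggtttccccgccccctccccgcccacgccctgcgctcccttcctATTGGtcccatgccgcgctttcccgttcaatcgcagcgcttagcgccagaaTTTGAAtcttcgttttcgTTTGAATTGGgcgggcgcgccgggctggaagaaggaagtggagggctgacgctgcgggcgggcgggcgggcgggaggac
MCM3, chr6:52284693-52284992, minus strand: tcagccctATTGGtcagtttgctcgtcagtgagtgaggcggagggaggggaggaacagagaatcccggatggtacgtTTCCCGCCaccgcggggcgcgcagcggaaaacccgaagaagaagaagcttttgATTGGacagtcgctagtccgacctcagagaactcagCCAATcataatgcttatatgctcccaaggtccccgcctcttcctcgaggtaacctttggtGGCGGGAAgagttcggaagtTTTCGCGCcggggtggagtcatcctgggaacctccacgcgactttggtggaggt

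In CCNB2, PLK1 and MKI67 a TTTGAA began 29 bases before the start site. Promoter windows were found for 39 of the 50 genes, 59 windows in all because some genes have several start sites. A CHR motif lay in 15 of the 24 windows of G2 and mitosis genes (62.5%), and in 24.9% of the 35116 promoters of the same length. An E2F motif lay in 9 of the 15 windows of replication genes (60%), and in 4.24% of all promoters. CCAAT lay in 18 of the 24 windows of G2 and mitosis genes (75%) and 12 of the 15 of replication genes (80%), and in 34.6% of all promoters. The 14 windows of G1 control genes held 0 CHR, 2 E2F and 4 CCAAT matches by window. A match describes letters and shows neither a bound site nor a cause.

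Total counts in genes ran from 1817246 to 3135625 in HEK293T and from 2342969 to 3531106 in Flp-In libraries, and the 50 genes together had 16140 to 35907 counts a library. Levels are given as CPM, counts scaled to library size, on one scale over the 24 samples, and the floor of 3 counts came to between 0.863 and 1.67 CPM. The labelled lines were checked against 10 genes reported in 293 cells, whose summed level was 177 to 247 CPM in HEK293T and 733 to 970 in Flp-In libraries, with TUBB3 at 0 counts in all. Of lists for other cell types, fibroblast genes summed to at most 18.2 CPM, blood genes to at most 23.1 and endothelial genes to at most 1.02, while EPCAM took the epithelial list to 87.4 to 148 CPM in Flp-In libraries against 10.8 to 25.3 in HEK293T. The second RPRD1A_RPRD2_KD library stood apart from the other 15 HEK293T libraries, at -50.7 on the first principal component (29% of variance) against -2.42 to 11.4. RPRD1B mRNA, the check on the labels, had a median of 8.25 CPM (3.88 to 14.4) in the 6 libraries labelled with RPRD1B siRNA and 25.6 CPM (19.6 to 36.5) in 8 without it. In the library group labelled RPRD1A_RPRD1A_KD it stood at 13.8 and 7.90 CPM, inside the range of the 6 labelled libraries. RPRD1A averaged 157 CPM in control and 19.2 to 25.7 CPM in the 4 groups labelled with it, but also 92.0 in RPRD1B_KD, 84.9 in RPRD2_KD and 75.5 in RPRD1B_RPRD2_KD, which were not called. RPRD2 averaged 98.1 CPM in control and 31.9 to 59.9 in the 4 groups labelled with it. With induction RPRD1B mRNA was 89.5 and 67.5 CPM in RPRD1B_FL_TET against 30.9 and 30.5 in FLP_TET, and 45.0 and 45.5 in untreated RPRD1B_FL. RPRD1A was lower in RPRD1B_FL_TET than in FLP_TET, at 26.3 ± 1.2 against 56.2 ± 2.6 CPM (SD, n = 2 each, adjusted p 0.00463 by edgeR's quasi-likelihood test).

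None of the 50 genes passed the main test, which has no term for the replicate number, in any of the RPRD siRNA groups. Under alternatives given below, CDT1 passed in RPRD1A_RPRD1A_KD and RPRD1A_RPRD1B_RPRD2_KD, and PCNA in RPRD1A_RPRD2_KD. In each of the 7 knockdown groups against control, 0 of 50 genes had an adjusted p under 0.05 by edgeR's quasi-likelihood test with Benjamini-Hochberg adjustment over 11834 genes. The share of all tested genes called was as low: 0.00845% for RPRD1A_KD, RPRD1B_KD, RPRD2_KD and RPRD1A_RPRD2_KD, and 0.0169% for RPRD1A_RPRD1A_KD, RPRD1B_RPRD2_KD and RPRD1A_RPRD1B_RPRD2_KD. DESeq2 also called 0 of the 50 in each of the 7. At an unadjusted p under 0.05, RPRD1A_RPRD2_KD had 3 of the 50 (against 7.07% of all genes), RPRD2_KD had 1 (3.84%), RPRD1B_RPRD2_KD had 1 (2.51%) and RPRD1A_RPRD1A_KD had 1 (3.99%). RPRD1A_KD had 0 (2.64%), as did RPRD1B_KD (3.46%) and the triple knockdown (3.99%). The median log2 fold change of the 50 lay between -0.04 and 0.05 in the 7 comparisons. The 95% interval of the log2 fold change lay wholly between -1 and 1, a doubling or halving, for 43 of 50 genes in RPRD1A_RPRD2_KD, 45 in RPRD2_KD and 47 in each of the other 5. All 7 comparisons use the same 2 control samples. On the log2 scale RPRD1B itself was at -1.77 in RPRD1B_KD, -1.795 in RPRD1B_RPRD2_KD and -1.45 in the triple knockdown, and was not called. RPRD2 was not called in RPRD1A_RPRD2_KD (-1.06) or in the triple knockdown (-0.71). So 0 calls among the 50 do not show that their levels were unchanged.

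CCND1, the gene RPRD1B is known to promote, lies on chromosome 11 from 69641087 to 69654474 on the plus strand (GRCh38). It had 60.8 and 56.1 CPM in the control samples and 55.7 and 58.1 CPM in RPRD1B_KD. The RPRD1B_RPRD2_KD samples had 55.8 and 58.2 CPM, and those of RPRD1A_RPRD1B_RPRD2_KD 45.6 and 56.2. The groups overlap, with the exception of RPRD1A_KD at 46.4 and 47.6 CPM, where both samples were below both controls. RPRD1A_KD and control did not overlap for 28.2% of all genes. The log2 fold change was -0.03 (SE 0.20, 95% interval -0.46 to 0.39) in RPRD1B_KD, with an adjusted p of 1.00 by edgeR's quasi-likelihood test. In RPRD1A_KD it was -0.31 (SE 0.20, 95% interval -0.74 to 0.12), with an adjusted p of 1.00 by the same test. The other 5 knockdown groups gave values between -0.19 and -0.03 on the log2 scale. CCND1's 3′ end overlaps LTO1 on the opposite strand in the GENCODE annotation, and the strand setting of the counting is not given in the sources used here. Another gene overlapped the last 500 bases of 11 of the 50 genes. These were CCND1, CDK4, CCNE2, CDK2, E2F8, MCM2, RRM1, CCNA2, FOXM1, PLK1 and BUB1B.

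**Figure D1:**
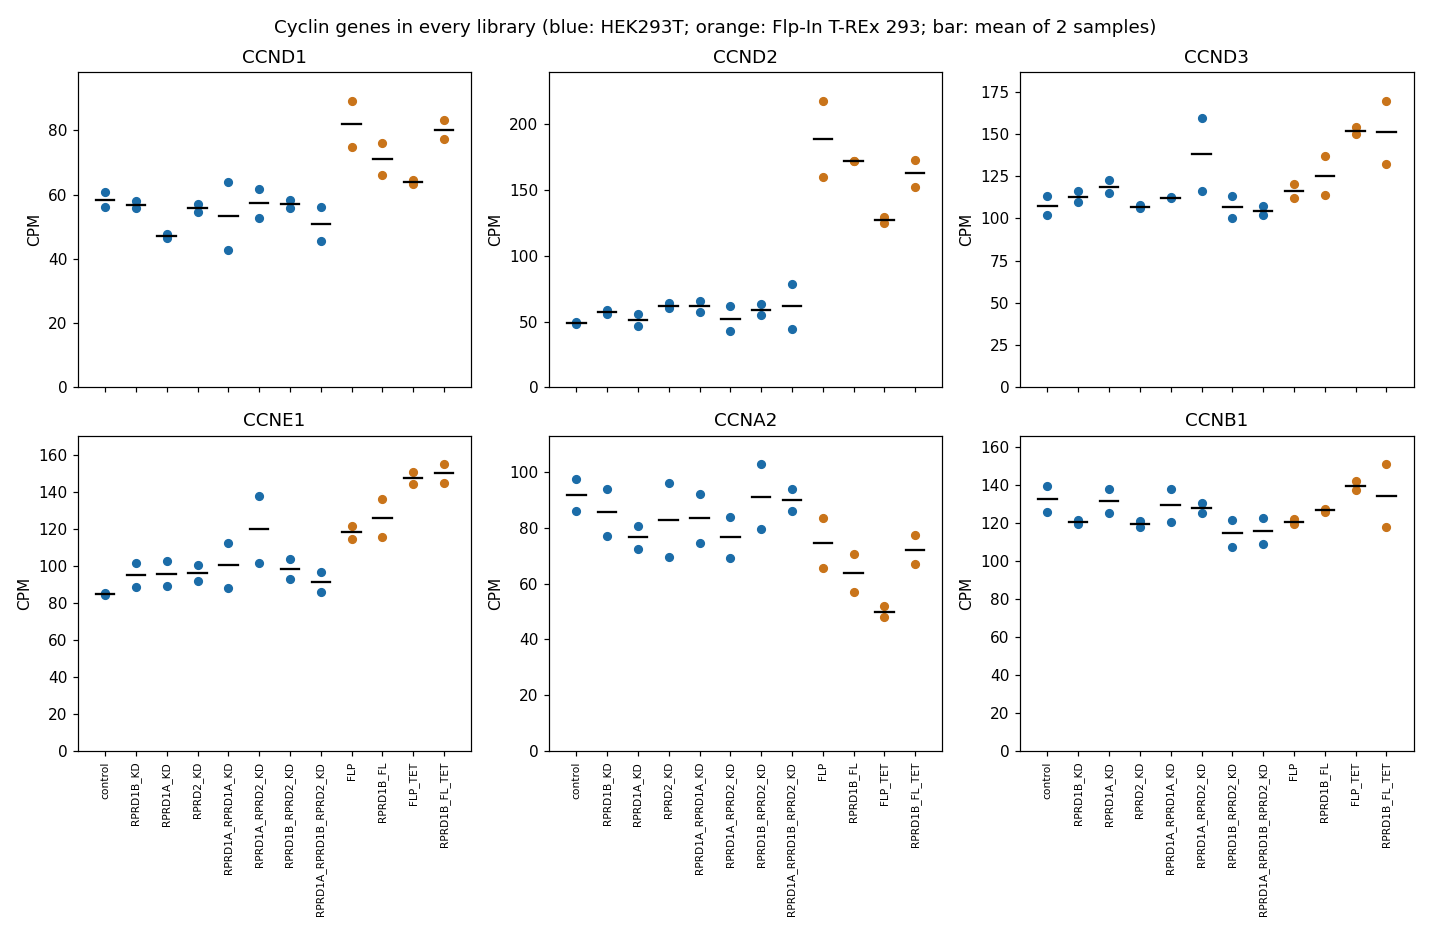
CPM of 6 cyclin genes in each of the 24 libraries (points) by group, with the mean of the 2 samples as a bar; blue marks HEK293T and orange Flp-In T-REx 293. CCND1 runs from 42.9 to 63.9 CPM over the 16 HEK293T libraries with no separate level in the RPRD1B siRNA groups, and CCND2 is above 124 CPM in every Flp-In library and below 79 in every HEK293T library.

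Setting the 6 libraries with RPRD1B siRNA against 8 without it narrowed the intervals, and still called 0 of 50 genes (0.0254% of all genes), with 3 at an unadjusted p under 0.05 (6.1% of all genes) and 0 by DESeq2. CCND1 had a median of 56.0 CPM (45.6 to 58.2) with RPRD1B siRNA and 55.4 CPM (46.4 to 61.8) without. Both sets cover nearly the same range, and their means were 54.9 ± 4.7 (SD, n = 6) and 54.7 ± 5.6 CPM (SD, n = 8). The log2 difference was 0.02 (SE 0.11, 95% interval -0.21 to 0.25, adjusted p 0.986 by edgeR's quasi-likelihood test). For all 50 genes the interval lay between -1 and 1. These sets differ also in the RPRD1A and RPRD2 siRNAs they hold. The 2 RPRD1A_RPRD1A_KD libraries were in neither set, because their label names RPRD1A in both positions.

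The member nearest to the threshold upward in that contrast was CDK1, the kinase that drives entry into mitosis. It had a median of 135 CPM (125 to 158) with RPRD1B siRNA and 119 CPM (109 to 136) without, with overlapping samples. Its log2 difference was 0.18 (SE 0.08, adjusted p 0.803 by edgeR's quasi-likelihood test). Downward it was AURKB, the kinase of the chromosomal passenger complex. AURKB had a median of 1099 CPM (1080 to 1243) with RPRD1B siRNA and 1308 CPM (1173 to 1762) without, where the highest is the library that stood apart. Its log2 difference was -0.24 (SE 0.09, adjusted p 0.775 by edgeR's quasi-likelihood test), and -0.17 without that library.

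**Figure D2:**
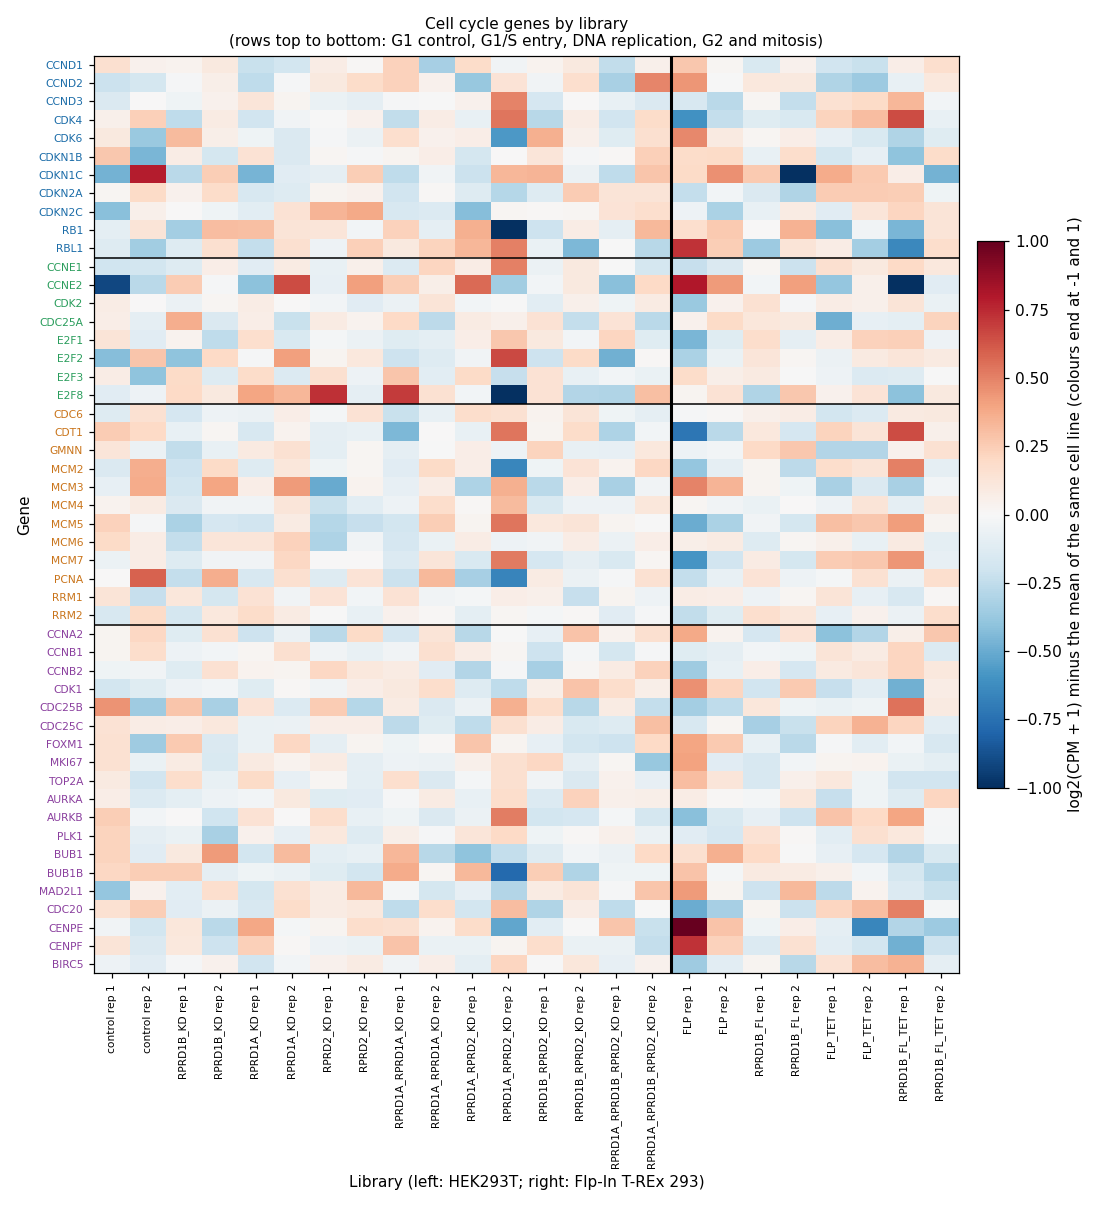
Level of each of the 50 genes (rows, coloured by role) in each of the 24 libraries (columns), as log2(CPM + 1) minus the mean over the libraries of the same cell line, so the lines are not compared. The second RPRD1A_RPRD2_KD library and the first FLP and RPRD1B_FL_TET libraries carry the most strong colours, and no knockdown group has a block of colour of its own in both samples.

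Among G1 control genes, the nearest to the threshold in a single knockdown was CDKN2C, which encodes the CDK4 and CDK6 inhibitor p18. It had 21.4 and 22.04 CPM in RPRD2_KD against 12.3 and 17.4 in control. Both knockdown samples were above both controls, and the groups did not overlap for 32.2% of all genes. The log2 fold change was 0.55 (SE 0.25, unadjusted p 0.0441, adjusted p 1.00 by edgeR's quasi-likelihood test). CDKN2A, which encodes p16 and ARF, was the nearest downward in RPRD1A_KD, at 211 and 216 CPM against 239 and 269 (log2 fold change -0.25, SE 0.16).

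Of the genes of S phase entry, CCNE2, one of the cyclin E genes, was the nearest upward in RPRD1A_KD and RPRD1B_KD. It had 3.35 and 5.79 CPM in control, only 6 and 13 reads. It had 5.15 and 11.8 CPM in RPRD1A_KD, overlapping the controls, and 8.74 and 7.09 in RPRD1B_KD, above them. RPRD1B_KD and control did not overlap for 28.5% of all genes. The log2 fold changes were 0.90 (SE 0.49) and 0.76 (SE 0.50), each with an adjusted p of 1.00 by edgeR's quasi-likelihood test. CCNE1, the other cyclin E gene, had 102 and 138 CPM in RPRD1A_RPRD2_KD against 84.2 and 85.5 in control. On the log2 scale it differed by 0.48 (SE 0.18, adjusted p 0.646 by edgeR's quasi-likelihood test), and 0.28 without the second RPRD1A_RPRD2_KD library, which held the higher value.

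In 5 of the 7 knockdown comparisons more of the 12 replication genes were below control than above it, by small amounts. In RPRD1B_KD 11 of 12 had a log2 fold change below 0, with a median of -0.14 and a lowest value of -0.35, where the median of all genes was 0.00 and 5835 of 11834 were below 0. In RPRD2_KD it was 10 of 12 (median -0.18), in RPRD1A_RPRD1B_RPRD2_KD 11 of 12 (median -0.08), in RPRD1A_RPRD1A_KD and RPRD1B_RPRD2_KD 9 of 12 each, and in RPRD1A_KD (median 0.02) and RPRD1A_RPRD2_KD 6 of 12 each. Of all 11834 genes, 5835 (RPRD1B_KD) to 6005 (RPRD1A_RPRD2_KD) were below 0. In the control samples the 12 genes summed to 2691 and 2923.5 CPM, and the second was the highest of the 16 HEK293T libraries (median 2618). The comparisons share these controls, and 0 of the 12 passed the main test in any of them. MCM5, a subunit of the replicative helicase, was the nearest downward in 2 of them. It had 167 and 141 CPM in control, 114 and 127 in RPRD1B_KD and 116 and 121 in RPRD2_KD. Both groups lay below the controls, with no overlap for 28.5% and 32.2% of all genes. The log2 fold changes were -0.35 (SE 0.19) and -0.36 (SE 0.19), each with an adjusted p of 1.00 by edgeR's quasi-likelihood test.

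CDT1, which loads that helicase onto origins, was nearest downward in RPRD1A_RPRD1A_KD and RPRD1A_RPRD1B_RPRD2_KD. It had 384 and 368 CPM in control against 235 and 322, and 260 and 316, all 4 below the controls. These groups and control did not overlap for 31.3% and 31.5% of all genes. The log2 fold changes were -0.42 (SE 0.19) and -0.38 (SE 0.19), each with an adjusted p of 1.00 by edgeR's quasi-likelihood test. With the replicate number as a block and without the second RPRD1A_RPRD2_KD library, CDT1 passed in both, at -0.43 and -0.38 (adjusted p 0.00994 and 0.0284 by edgeR); with the block alone it did not (adjusted p 0.44 and 0.523). PCNA, the sliding clamp of the replication fork, had 110 and 87.1 CPM in RPRD1A_RPRD2_KD against 139 and 208 in control. Both knockdown samples were below both controls, with no overlap for 27.8% of all genes, and the 2 control samples were far apart. Its log2 fold change of -0.84 (SE 0.25) had an unadjusted p of 0.0033 and an adjusted p of 0.619 by edgeR's quasi-likelihood test, and was -0.65 without the second RPRD1A_RPRD2_KD library.

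Of the G2 and mitosis genes, CDK1 was the nearest upward in 3 of the combined knockdowns. It had 114 and 119 CPM in control, 139 and 147 in RPRD1A_RPRD1A_KD, 135 and 158 in RPRD1B_RPRD2_KD and 147 and 135 in RPRD1A_RPRD1B_RPRD2_KD. All 6 samples were above both controls, which the 3 comparisons share, and groups did not overlap for 31.3%, 28.1% and 31.5% of all genes. The log2 fold changes were 0.30 (SE 0.15), 0.33 (SE 0.15) and 0.28 (SE 0.15), each with an adjusted p of 1.00 by edgeR's quasi-likelihood test. AURKB was the nearest downward in RPRD1B_RPRD2_KD, at 1089 and 1101 CPM against 1470 and 1213 in control (log2 fold change -0.29, SE 0.17).

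The 114 other genes of these pathways behaved likewise in HEK293T, with 0 called in each of the 7 knockdown comparisons and in the contrast of RPRD1B siRNA. They were 20 further G1 genes, 38 replication genes and 56 mitosis genes, of which 19, 37 and 56 passed the filter on low counts.

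Raising RPRD1B in Flp-In cells called 0 of the 50 genes, in RPRD1B_FL_TET against FLP_TET, where 1.11% of all 11948 genes were called (0.226% higher and 0.887% lower). At an unadjusted p under 0.05, 3 genes were higher (CCNA2, CDC25B and GMNN) and 0 lower, against 10.3% of all genes in either direction, and DESeq2 called 0. The median log2 fold change of the 50 was -0.03 (all genes 0.00), and 47 of 50 intervals lay between -1 and 1. CCND1 had 77.2 and 83.1 CPM in RPRD1B_FL_TET and 64.6 and 63.3 in FLP_TET. Samples of these 2 groups did not overlap for 38.3% of all genes. For CCND1 both induced RPRD1B_FL samples were above both FLP_TET samples, by 1.24-fold (95% interval 0.97 to 1.59). The log2 fold change was 0.31 (SE 0.17, adjusted p 0.566 by edgeR's quasi-likelihood test). It kept its sign in all 12 alternatives tried, from 0.24 to 0.38, and passed the threshold in 0 of them.

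Before induction, the CCND1 levels of the Flp-In groups overlapped. Untreated FLP had 89.3 and 74.8 CPM and untreated RPRD1B_FL 66.2 and 76.0. The log2 fold change of RPRD1B_FL against FLP was -0.198 and was not called. The values of FLP_TET were the lowest of the 4 groups, and those of RPRD1B_FL_TET lay inside the range of untreated FLP. Tetracycline gave a log2 difference of -0.36 (SE 0.17, adjusted p 0.210 by edgeR's quasi-likelihood test) in FLP and 0.15 (SE 0.17, adjusted p 0.882) in RPRD1B_FL. With a correction for GC content these became -0.69, which passed (adjusted p 0.0471 by edgeR), and -0.007. The difference between these 2 effects was 0.51 (SE 0.24, unadjusted p 0.0457, adjusted p 0.991 by edgeR's quasi-likelihood test).

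CCNA2, cyclin A2, which works with CDK2 in S phase and CDK1 in G2, was the nearest to the threshold with raised RPRD1B. It had 66.9 and 77.3 CPM in RPRD1B_FL_TET and 47.9 and 52.0 in FLP_TET, so the groups do not overlap, as for 38.3% of all genes. The log2 fold change was 0.51 (SE 0.19, unadjusted p 0.0120, adjusted p 0.267 by edgeR's quasi-likelihood test). Untreated FLP had 83.6 and 65.6 CPM and untreated RPRD1B_FL 57.1 and 70.7, so FLP_TET was again the lowest group. The difference between the tetracycline effects was 0.73 (SE 0.26, adjusted p 0.991 by edgeR's quasi-likelihood test). TOP2A, the topoisomerase that untangles chromosomes before their separation, was the nearest downward, at 1216 and 1218 CPM against 1492 and 1349 (log2 fold change -0.24, SE 0.14).

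Without tetracycline, RPRD1B_FL against FLP also called 0 of 50 genes (1.18% of all genes), with 7 at an unadjusted p under 0.05 (13.3% of all genes) and 0 by DESeq2. FOXM1, a transcription factor of G2 and mitosis genes, was nearest. It had 56.0 and 48.9 CPM against 77.8 and 70.8, with no overlap, as for 44.3% of all genes. On the log2 scale it differed by -0.50 (SE 0.17, adjusted p 0.189 by edgeR's quasi-likelihood test), and with a correction for GC content it became -0.55 and passed, at an adjusted p of 0.0459. CDT1 was the nearest upward, at 393 and 324 CPM against 221 and 302 (log2 fold change 0.46, SE 0.18). Induction within RPRD1B_FL called 0 of 50 genes (0% of all genes), with 5 at an unadjusted p under 0.05 (6.13% of all genes) and 0 by DESeq2. CDK4, the cyclin D partner, was the nearest there, at 268 and 161 CPM against 156 and 152, where the first RPRD1B_FL_TET library held most of the difference. CENPF, a kinetochore protein, was nearest downward, at 151 and 182 CPM against 191 and 233. For the difference between the tetracycline effects, 0 of 50 genes were called (0% of all genes), with 3 at an unadjusted p under 0.05 (3.99% of all genes) and 0 by DESeq2. MCM7, another helicase subunit, had the smallest p of the genes below 0, at -0.41 (SE 0.24, adjusted p 0.991 by edgeR's quasi-likelihood test).

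Of the further G1 genes, 2 of 19 were higher and 1 lower in RPRD1B_FL_TET than in FLP_TET, beside 0.226% of all genes called higher and 0.887% lower. TFDP1, the DNA-binding partner of E2F factors, rose from 332 ± 9.7 to 610 ± 110 CPM (SD, n = 2 each; log2 fold change 0.87, SE 0.15, adjusted p 0.00346 by edgeR's quasi-likelihood test). CDK8, a kinase of the Mediator complex, was at 27.6 ± 0.13 CPM against 13.7 ± 0.22 (log2 fold change 0.99, adjusted p 0.0432 by the same edgeR test). SKP2, which targets the inhibitor p27 for destruction, was lower by 0.71 on the log2 scale (adjusted p 0.0317 by edgeR). Of 37 replication genes CHAF1B, a histone chaperone subunit, was lower by 0.79 (adjusted p 0.0120 by edgeR). Of 56 mitosis genes 0 were called. These 4 genes kept their calls with the GC correction, and over the 12 alternatives CDK8 was called in 5, SKP2 in 9, and TFDP1 and CHAF1B in 10 each. In the untreated comparison of RPRD1B_FL with FLP, 0 genes of the 3 lists were called. With the GC correction 1 of 112 was higher there and 2 lower, beside 94 and 213 of all 11948 genes. Induction within RPRD1B_FL also called 0 of the 3 lists. The log2 fold changes there ran from -0.525 to 0.74 over the 19 G1 genes and from -0.337 to 0.441 over the 37 replication genes. The GC correction called 1 higher there, beside 2 higher and 2 lower of all genes. For the difference between the tetracycline effects, 0 were called with or without the correction.

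Lowering and raising RPRD1B were then set side by side, gene by gene; these comparisons share no sample. With RPRD1B_KD as the lowering, 12 genes were lower with siRNA and higher with induction, and 14 the reverse, so 26 of 50 (52%) had opposite signs on the log2 scale, against 49.5% of 11107 genes. Spearman's rho across the 50 genes was -0.17, against 0.02 across all genes. With the contrast of 6 against 8 libraries, 21 of 50 (42%) had opposite signs, with rho -0.14, against 49.9% and 0.014 across all genes. RPRD1B_RPRD2_KD gave 46% and rho 0.072 (all genes 48.5% and 0.044). The triple knockdown gave 54% and rho -0.055 (all genes 49.8% and 0.006). Across genes these are descriptions, since genes are not independent replicates. CCND1 was among the 12 with the RPRD1B_KD group (-0.03 and 0.31) and had the same sign in both with the larger contrast (0.02 and 0.31). CCNA2 was 0.12 in the larger contrast and 0.51 with induction.

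**Figure D3:**
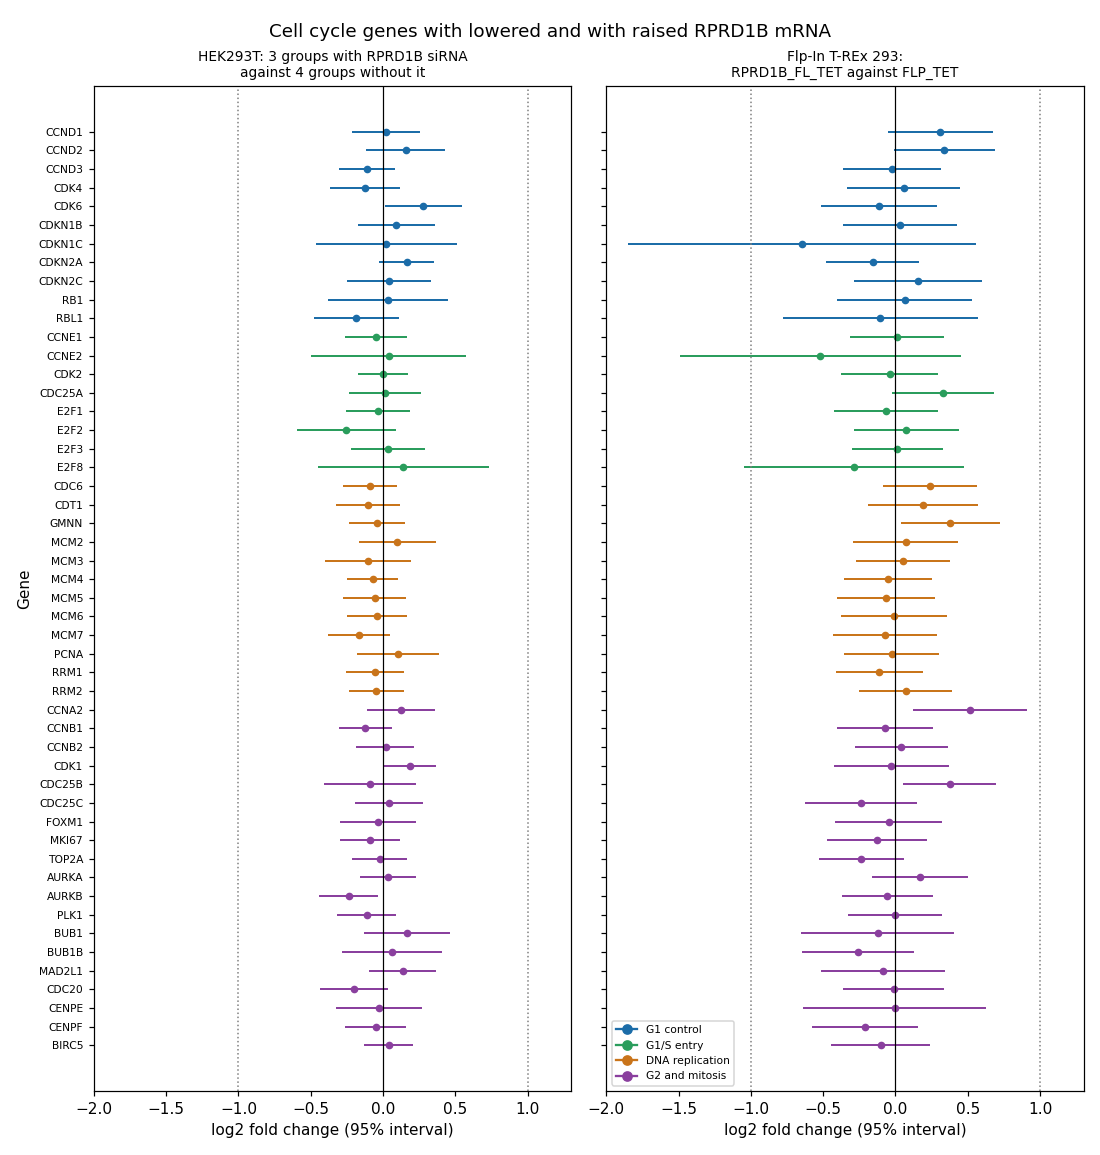
Log2 fold change (point) with its 95% interval (line) of the 50 genes with RPRD1B siRNA in HEK293T (left) and with induction of RPRD1B_FL against FLP_TET (right), coloured by role; dotted lines mark a doubling and a halving. All intervals on the left and 47 of 50 on the right lie inside the dotted lines, and CCND1 is at 0.02 on the left and 0.31 on the right.

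Tetracycline alone was the treatment with calls among the 50 genes. In FLP_TET against FLP, 3 of 50 genes were called, MCM5 higher and MCM3 and CENPE lower (1.02% of all genes: 0.226% higher and 0.795% lower). At an unadjusted p under 0.05 it was 11 higher and 13 lower, against 22.7% of all genes. MCM5 had 168 and 165 CPM in FLP_TET and 96.5 and 109 in FLP, and rose by 0.69 on the log2 scale (SE 0.16, adjusted p 0.0468 by edgeR's quasi-likelihood test). MCM3, another subunit of the same helicase, had 206 and 234 CPM in FLP_TET and 364 and 329 in FLP, and fell by 0.66 (SE 0.15, adjusted p 0.0468 by the same edgeR test). The groups do not overlap for either subunit, as for 58% of all genes, and these subunits of 1 complex moved in opposite directions. CENPE, a kinesin of the kinetochore, had 19.1 and 12.6 CPM in FLP_TET and 44.6 and 25.0 in FLP. It fell by 1.11 (SE 0.27, adjusted p 0.04995 by edgeR's quasi-likelihood test), and the first FLP library held the highest value.

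The direction in FLP_TET went with the GC content of the transcripts. Across the 50 genes, Spearman's rho of the log2 fold change with GC content was 0.66 (0.54 across 11781 genes), and the libraries share this axis of variation, with the first FLP library at -0.55 and the first RPRD1B_FL_TET library at 0.60 for their deviation against GC. CENPE transcripts have 35.3% GC, the lowest of the genes called, and MCM5 transcripts 58.6%. With a correction for GC content, rho was 0.29 across the 50 genes and 0.03 across all genes, and 3 genes were called, of which MCM3 alone was called before. CCND1 then fell by 0.69 (adjusted p 0.0471 by edgeR), CCND2 by 0.62 (adjusted p 0.0322) and MCM3 by 0.72 (adjusted p 0.0164), while MCM5 was at 0.46 and CENPE at -0.65, past no threshold. Leaving out FLP replicate 1, FLP_TET replicate 1 or FLP_TET replicate 2 left 0 genes called, and leaving out FLP replicate 2 gave 11. Within RPRD1B_FL, rho of the tetracycline effect with GC content was 0.74, and 0.29 with the correction. The part of GC content in the fold changes beyond this correction was not tested.

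**Figure D4:**
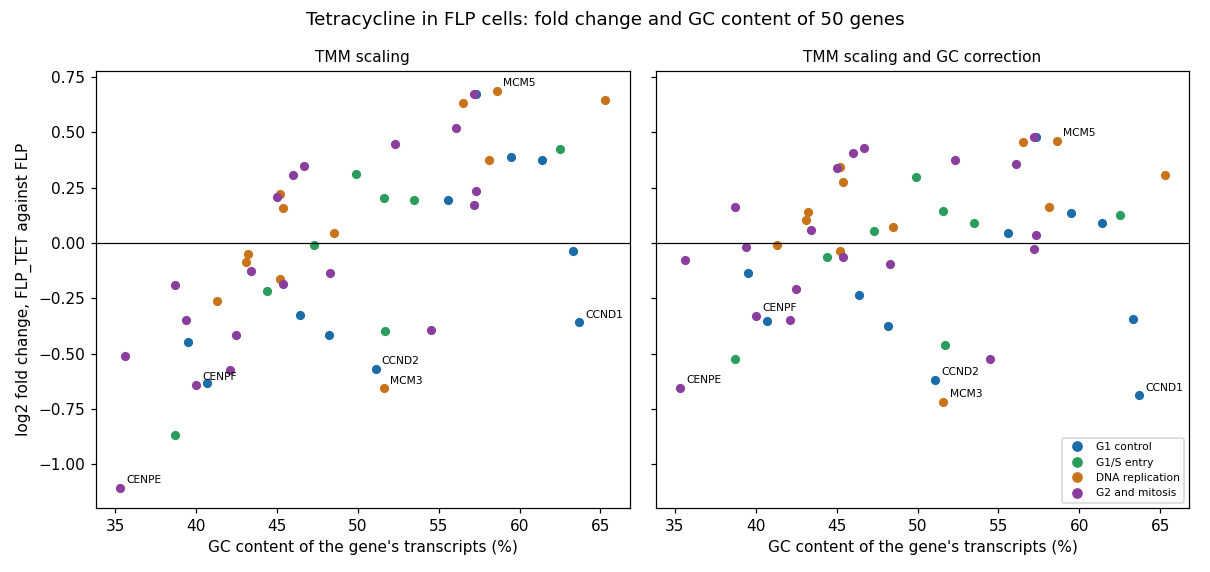
Log2 fold change of the 50 genes in FLP_TET against FLP (vertical axis) by the GC content of their transcripts in percent (horizontal axis), with TMM scaling alone (left) and with a GC correction (right), coloured by role. The upward slope on the left, rho 0.66, is flatter on the right, rho 0.29, where CCND1, CCND2 and MCM3 are the genes called, all below 0.

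Of the further pathway genes, 0 rose and 3 fell in FLP_TET: CDC7, the kinase that fires origins, by 0.84, FEN1, the flap nuclease, by 0.73, and KIF20B, a mitotic kinesin, by 1.16 on the log2 scale, each with an adjusted p of 0.0468 by edgeR's quasi-likelihood test. The shares of all genes were 0.226% higher and 0.795% lower. With the GC correction FEN1 kept its call (-0.84, adjusted p 0.0164 by edgeR), and CDC7 (-0.63, adjusted p 0.0544) and KIF20B (-0.67, adjusted p 0.104) did not.

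The largest differences among the 50 genes were between the lines. In HEK293T with control siRNA against untreated FLP, 19 of 50 genes were called, 4 higher and 15 lower in HEK293T, where 33.4% of all 12803 genes were called, 16.1% higher and 17.4% lower. The median log2 fold change of the 50 was -0.24 and that of all genes 0.02. Line and siRNA transfection differ together here and cannot be told apart, and so do the shares of rows outside genes, 40.5 to 48.5% of all reads in HEK293T and 30.4 to 33.2% in Flp-In libraries. Over all 24 libraries, 12 of the 50 genes (24%) were lower in every HEK293T library than in any Flp-In library and 1 (2%) was higher in every one, against 11.8% and 8.7% of all genes. The 12 were CCND2, CDKN1B, CDKN2C, E2F2, MCM3, RRM1, RRM2, CCNB2, CDC25B, MKI67, AURKA and PLK1, and the 1 was CDKN1C.

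Of G1 control genes, 2 of 11 were higher and 4 lower, beside 16.1% and 17.4% of all genes. CCND2, the cyclin D2 gene (chromosome 12, 4273772 to 4305350, plus strand, GRCh38), had 48.0 and 49.4 CPM in control and 218 and 159.7 in FLP. It differed by -1.95 on the log2 scale (SE 0.22, 0.26-fold, adjusted p 1.91e-07 by edgeR's quasi-likelihood test). Over the lines CCND2 ran from 42.8 to 78.9 CPM (median 56.5) in 16 HEK293T libraries and from 124.6 to 218 (median 166) in 8 Flp-In libraries, with no overlap. CCND1 differed less, 60.8 and 56.1 CPM against 89.3 and 74.8 (log2 fold change -0.49, SE 0.19, adjusted p 0.0467 by edgeR), and the call was lost in 6 of 12 alternatives. CCND3, the third D-type cyclin, had 102 and 113 CPM against 120.2 and 112, with no call.

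CDKN1B, which encodes the CDK inhibitor p27, had 48.5 and 28.9 CPM in control and 104 and 105 in FLP. It differed by -1.45 (SE 0.22, adjusted p 1.59e-05 by edgeR's quasi-likelihood test). CDKN1C, which encodes the related inhibitor p57, went the other way, with 5.58 and 14.7 CPM (10 and 33 reads) against 3.43 and 4.32 (9 and 15 reads). On the log2 scale it differed by 1.40 (SE 0.47, adjusted p 0.0229 by edgeR), and 0.48 without the second control library. Of the further G1 genes, 4 of 19 were higher and 4 lower in HEK293T, beside 16.1% and 17.4% of all genes. They include the CDK inhibitor genes CDKN1A, encoding p21, at -2.41, and CDKN2B, encoding p15, at -1.84, and E2F5 and TFDP1, at 1.38 and 0.67 on the log2 scale.

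**Figure D5:**
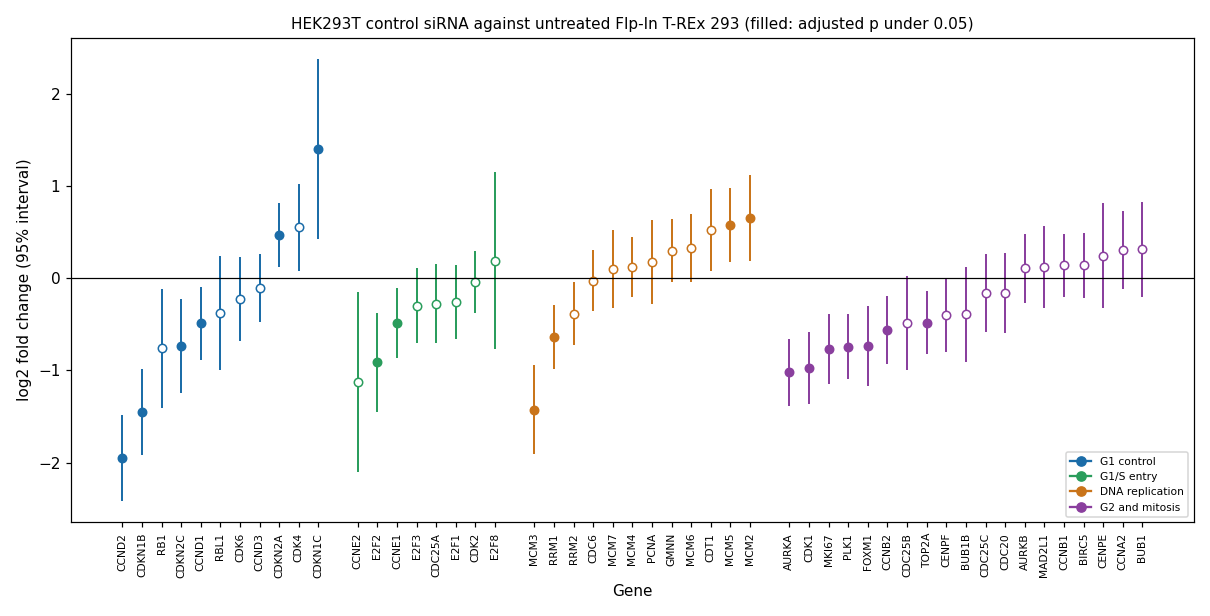
Log2 fold change (circle) with its 95% interval (line) of the 50 genes in HEK293T control samples against untreated FLP samples, sorted within each role; filled circles have an adjusted p under 0.05. CCND2 is the lowest at -1.95 and CDKN1C the highest at 1.40, and all 7 filled circles of G2 and mitosis genes lie below 0.

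At S phase entry, 2 of 8 genes were lower and 0 higher, beside 17.4% and 16.1% of all genes. They were CCNE1 at -0.48 and E2F2, an activator of the E2F family, at -0.91 on the log2 scale. The CCNE1 call was lost in 8 of 12 alternatives. In DNA replication, 2 of 12 were higher and 2 lower, near the 16.1% and 17.4% of all genes. The helicase subunits called went both ways. MCM3 had 109 and 149 CPM in control against 364 and 329 in FLP, a log2 difference of -1.42 (SE 0.23, adjusted p 3.40e-05 by edgeR's quasi-likelihood test). MCM2 had 404 and 575 CPM against 279 and 345, a log2 difference of 0.65 (SE 0.22, adjusted p 0.0259 by edgeR), and MCM5 had 167 and 141 against 96.5 and 109, a log2 difference of 0.58 (SE 0.19, adjusted p 0.0206 by edgeR). The groups do not overlap for these 3 subunits, as for 65.8% of all genes. MCM3 was the only one of the 6 MCM genes called lower. RRM1, a ribonucleotide reductase subunit, was lower too, at -0.64 on the log2 scale. Of the 38 further replication genes 5 were higher, with DBF4 (1.21) and POLD1 (1.19) first, and 6 lower, with RFC3 (-1.50) and PRIM2 (-0.97) first on the log2 scale, 11 of 38 beside 33.4% of all genes.

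In G2 and mitosis, 7 of 19 genes were lower in HEK293T and 0 higher, beside 17.4% and 16.1% of all genes. They were AURKA, a spindle kinase (112 ± 12 against 228 ± 6.9 CPM, SD, n = 2 each; log2 fold change -1.02), CDK1 (117 ± 3.5 against 230.4 ± 27; -0.98), MKI67, which encodes the proliferation marker Ki-67 (150.3 ± 16 against 256 ± 64; -0.77), PLK1, a mitotic kinase (92.7 ± 14 against 155 ± 4.5; -0.74), FOXM1 (45.0 ± 11 against 74.3 ± 5.0; -0.73), CCNB2, cyclin B2 (120.3 ± 0.52 against 178 ± 25; -0.56), and TOP2A (1155 ± 160 against 1615 ± 150; -0.48). CCNB1, the cyclin B1 gene, had 126 and 139.8 CPM against 119 and 122, on the other side of 0 from CCNB2 and not called. AURKA, CDK1 and PLK1 kept their calls in all 12 alternatives. Of the 56 further mitosis genes 8 were higher, with CENPI (1.25) and DLGAP5 (1.12) first, and 9 lower, with KIF20A (-1.64) and NDC80 (-1.28) first on the log2 scale, so that list went both ways. These 17 of 56 also stand near the background of 33.4% of all genes (16.1% higher and 17.4% lower).

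Within a line, the spread of each gene between libraries was taken as the SD of log2(CPM + 1). It had a median over the 50 genes of 0.18 in HEK293T and 0.23 in Flp-In libraries, and was under 0.25 for 40 and 30 of them. It was not set beside the spread of other genes. In HEK293T part of this spread went with the replicate number of the titles. Leaving out RPRD1A_RPRD2_KD, 15 of 50 genes (30%) differed in the same direction between samples 1 and 2 in 7 of 7 groups, 7 higher and 8 lower in sample 1, against 19.6% of all genes. CDC25B, the phosphatase that activates CDK1, had 280.5 and 160.3 CPM in control, 249.5 and 163 in RPRD1B_KD and 245 and 168 in RPRD2_KD, and sample 1 was the higher in 7 of 7 groups. CDK4, E2F2, MCM3, MCM4, CCNA2 and CDC20 were lower in sample 1 in 8 of 8 groups, and CDC25A and E2F3 were higher in 8 of 8. What the numbers stand for is not given in the labels.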

How the data were processed

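Per the labels' protocols, RNA was extracted with TRIzol, and the library kit was QuantSeq 3′ mRNA-Seq REV. FastQC, STAR, HTSeq, DESeq2 and the build GRCh38 are named in the submitters' processing notes, without versions; the annotation and strand setting are not given in the sources used here. The authors deposited whole-number counts per gene name, 1 table a sample, with 5 closing rows that were left out (30.4 to 48.5% of all rows' reads).

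Counts were tested in R 4.3.3 with edgeR 4.0.16 (TMM, filterByExpr, quasi-likelihood test, Benjamini-Hochberg over all genes, threshold 0.05), in 1 fit for 16 HEK293T samples, 1 for 8 Flp-In samples and 1 for all 24. The SE is the size of the log2 value divided by the root of its F statistic, and intervals are 95% and unadjusted. CPM uses the TMM sizes of all 24 samples. Alternatives were RLE scaling, DESeq2 1.42.0, other filters, fewer groups, GC correction (lowess, span 0.3), the replicate number as a block, and samples left out. Floors cover counting error only.

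The 50 genes and all lists were chosen with earlier results of these data known. Values are given for CCND1, genes called (the 3 largest rises and falls where over 6), or else the smallest p in each direction, and up to 2 called pathway genes per list and direction. CCNA2, CCND2, CCND3, CCNB1, CDC25B, E2F2 and other genes named beyond this were chosen after their values were seen.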

Additional observations from a re-analysis of the deposited data

How the results depend on the processing

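Of the counts of genes called among the 50, 177 values under alternatives stayed within 1.5 times the main count and 20 did not; of the log2 fold changes of named genes 702 kept direction and side of the threshold, 61 lost the call, 9 gained it and 19 changed sign. The 19 are all of CCND1, called neither before nor after, so small differences of CCND1 have no settled direction in these comparisons. With the GC correction, without and with the replicate block, CCND1 was at 0.059 and 0.061 in RPRD1B_KD, 0.02 and 0.02 in RPRD2_KD, 0.049 and 0.043 in RPRD1B_RPRD2_KD, and -0.007 and -0.006 in RPRD1B_FL_TET against RPRD1B_FL. Leaving out the second RPRD1A_RPRD2_KD library under the replicate block put it at 0.073 in RPRD1A_RPRD2_KD and -0.01 in the RPRD1B siRNA contrast. With 1 sample left out it ran from -0.092 to 0.024 in RPRD1B_KD, -0.112 to 0.009 in RPRD2_KD, -0.442 to 0.144 in RPRD1A_RPRD1A_KD, -0.183 to 0.097 in RPRD1A_RPRD2_KD, -0.09 to 0.031 in RPRD1B_RPRD2_KD and -0.031 to 0.068 in the RPRD1B siRNA contrast. In FLP_TET against FLP, DESeq2 called 9 of the 50, leaving genes unfiltered 10, requiring 50 reads or more on average 0 (46 tested), and a fit of the compared groups alone 13; leaving out 1 sample gave 0 to 11. In RPRD1B_FL against FLP the GC correction called 1 (FOXM1), with or without the replicate block, and leaving out 1 sample gave 0 to 1. RPRD1B_FL_TET against RPRD1B_FL gave 0 to 1 and control against FLP 10 to 17 with 1 sample left out. RPRD1A_RPRD2_KD gave 1 with no filter (PCNA) and 0 to 4 with 1 sample left out: without replicate 1, leaving the library that stood apart, RB1, E2F8, MCM2 and BUB1B were called lower. A lone sample is assumed to vary like the other groups. For the other 6 knockdown comparisons, the RPRD1B siRNA contrast, RPRD1B_FL_TET against FLP_TET and the difference of tetracycline effects, leaving out 1 sample gave 0. The cause of these shifts was not tested, beyond fewer samples or genes.

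Pairing by replicate number was not fixed by the labels. The deviations of same-numbered samples had a correlation over 0.1 in 26 of 28 pairs of HEK293T groups (mean 0.34, from -0.01 to 0.53) and in 1 of 6 pairs of Flp-In groups (mean -0.02, from -0.35 to 0.45, the highest between RPRD1B_FL and RPRD1B_FL_TET). With the replicate block, FLP_TET against FLP called 0 of the 50 and control against FLP 25; without the second RPRD1A_RPRD2_KD library and with the block, RPRD1A_RPRD1A_KD and RPRD1A_RPRD1B_RPRD2_KD each called 1, CDT1. The block changed no other count of the 50 past 1.5 times. RPRD1B_FL and FLP had a correlation of -0.27, and a crossed block, added after seeing the data, called 3 (CDT1, MCM3 and CENPF).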
